A study of Mus musculus with 18 samples.

Results

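The genes described here were the 93 protein-coding genes of chromosome 1 whose start lay between 165 and 180 Mb in the deposited table and whose counts over all 18 samples summed to 180 or more. They were 93 of the 20615 genes in the table. The interval held 194 genes of any biotype and 135 protein-coding genes, of which 19 were under 180 counts and 23 were PYHIN (interferon-inducible p200), SLAM and Fc receptor genes left out by name. The members just outside the minimum were *Itln1* with 172 and Gm26620 with 179 counts, and those just inside were *Kcnj9* with 229 and *Cd247* with 283. All 93 passed the filter on low counts that left 15789 genes for testing. The rule for members used the position, biotype, name and total over all samples of a gene, and no comparison between groups. It was set with earlier results of these data known.

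The RNA was from bone marrow-derived macrophages (BMDMs), which are macrophages grown from bone marrow for 7 days in L929 cell supernatant containing M-CSF. Donors were female B6 (C57BL/6) mice and female SjSS (C57BL/6.NOD-Aec1Aec2) mice aged 7 to 12 weeks, 3 mice of each strain. SjSS is a model of Sjögren's syndrome in which chromosome intervals of the NOD mouse were bred onto the B6 background. BMDMs of each strain were left untreated (control), were given 1 µM CpG, an oligonucleotide that activates Toll-like receptor signaling, for 6 h, or were given apoptotic cells (AC), which were thymocytes killed with dexamethasone. The ACs were given at 5 per BMDM for 2 h, washed off and followed by 3 h of further incubation according to the sample labels (the methods give a longer time). Each of the 6 groups had 3 samples, the sources do not say whether same-numbered samples came from 1 mouse or the strain of the thymocytes given to each, and p values measure the spread between these samples. The labelled cell type was checked first. All 8 macrophage markers were present in every group, with a summed level of 15105 to 23748 CPM (counts scaled to the library total). Totals per sample were 30688336 to 57139662 counts, and the members took 0.536 to 0.612% of them.

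A congenic strain carries a stretch of one strain's chromosome in the genome of another, and genes within such a stretch can differ in their DNA as well as in their regulation. One of the bred intervals of this model, Aec2, corresponds to the diabetes interval *Idd5* of chromosome 1. The sources used here give no borders for it, so that the NOD or B6 origin of the 165 to 180 Mb region was not measured. The members do not form a pathway. They are neighbours with varied roles, from mitochondrial enzymes and secretory proteins to immune adaptors and kinases.

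Of the genes described below, the promoters of 4 are shown. *Dusp23* differed between the strains by a similar factor in each treatment. *Nectin4*, *Gm4955* and *AI607873* differed in their AC response and held the motif marked here. Each is the 250 bases before the RefSeq start of the gene, 5′ to 3′ on the strand of the gene, in build GRCm38.p6 (the mm10 coordinates), which is B6 sequence. Capitals mark the core of the interferon-stimulated response element, searched on both strands as GAAA, any 2 bases and GAAA.
*Dusp23* (chr1:172632975-172633224, minus strand): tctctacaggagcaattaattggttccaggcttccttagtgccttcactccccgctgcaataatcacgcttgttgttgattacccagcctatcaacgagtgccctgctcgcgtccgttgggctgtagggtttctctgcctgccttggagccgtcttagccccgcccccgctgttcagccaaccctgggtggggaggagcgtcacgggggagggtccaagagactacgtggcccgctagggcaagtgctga
*Nectin4* (chr1:171369923-171370172, plus strand): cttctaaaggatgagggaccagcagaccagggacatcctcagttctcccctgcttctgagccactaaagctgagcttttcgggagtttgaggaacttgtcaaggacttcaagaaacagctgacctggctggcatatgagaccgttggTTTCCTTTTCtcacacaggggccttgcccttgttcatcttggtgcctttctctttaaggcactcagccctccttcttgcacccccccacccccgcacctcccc
*Gm4955* (chr1:173491319-173491568, minus strand): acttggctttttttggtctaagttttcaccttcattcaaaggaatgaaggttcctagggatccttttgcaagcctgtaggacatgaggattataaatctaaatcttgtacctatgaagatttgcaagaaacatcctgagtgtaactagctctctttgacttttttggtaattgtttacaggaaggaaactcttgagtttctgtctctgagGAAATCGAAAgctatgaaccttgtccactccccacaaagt
*AI607873* (chr1:173741810-173742059, minus strand): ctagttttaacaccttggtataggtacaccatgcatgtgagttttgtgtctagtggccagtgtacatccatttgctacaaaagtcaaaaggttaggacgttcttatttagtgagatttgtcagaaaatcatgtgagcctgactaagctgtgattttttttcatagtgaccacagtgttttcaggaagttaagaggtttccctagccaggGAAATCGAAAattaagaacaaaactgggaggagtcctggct

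RefSeq promoters were matched for 73 of the 93 members. This core was found in 4 of the 73 (5.48%), the 3 shown and *Ppox*, and in 3.06% of 27025 RefSeq promoters of the same length. The promoters of *Kmo*, *Cd247*, *Igsf9* and *Alyref2*, whose AC response also differed between the strains, held no such core and are not shown. GAGGAAGT, a motif of the macrophage factor PU.1, was in 5 (6.85%, against 2.46% of all), TGACGTCA, the cAMP response element, in 3 (4.11%, against 1.56%), and a kappa-B site, GGGAC joined to TTTCC, in none of the 73 (0.126% of all). These are matches of letters and not measured binding sites. RefSeq lists *Gm4955* as *Ifi206* and *AI607873* as *Ifi207*, so that these members belong to the PYHIN family although the names in the table kept them among the members. Their neighbour *BC094916* had no RefSeq match.

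The strains were first compared without treatment. Of the 93 members, 5 were called higher and 5 lower in control SjSS BMDMs, where called genes are those that differ by more than 1.3 on the log2 scale with an adjusted p under 0.05 (edgeR quasi-likelihood test, 3 samples a group). These 10 are 10.8% of the members, while 2.01% of all genes tested were called, 1.3% higher and 0.716% lower. The higher genes were *Rgs4*, *Pcp4l1*, *Vangl2*, *Kif26b* and *BC094916*, and the lower were *Igsf9*, *Cfap45*, *Vsig8*, *Dusp23* and *Gm4955*. At an adjusted p under 0.05 with no fold threshold, 20 members were higher and 29 lower (52.7%). The same rule took 19.6% of all genes, 9.04% higher and 10.6% lower. The median size of the log2 strain difference was 0.35 over the members and 0.18 over all genes tested.

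With ACs, 10 members were called higher and 9 lower in SjSS (20.4%), beside 8.93% of all genes, 6.24% higher and 2.69% lower. At the adjusted p alone 27 were higher and 31 lower (62.4%), beside 49.4% of all genes, 24% higher and 25.5% lower. The share of all genes that differed was thus itself large with ACs. With CpG, 6 were called higher and 8 lower (15.1%), beside 2.61% of all genes, 1.82% higher and 0.792% lower. At the adjusted p alone 19 were higher and 22 lower (44.1%), beside 19.7% of all genes, 10.2% higher and 9.57% lower. The median size of the difference was 0.41 with ACs and 0.30 with CpG, beside 0.34 and 0.18 over all genes. Higher and lower members were therefore present in similar numbers in each treatment. All 10 members called in control BMDMs had the same sign and were significant in the other treatments, where 8 were called with ACs and 10 with CpG. The matching share of all genes called in control was not computed. With 3 mice of each strain for 3 treatments, the treatments may share mice, so that this agreement is not independent evidence. Another 7 members were called with ACs only: *Adamts4*, *Usp21*, *Nectin4*, *Kcnj10* and *AI607873* higher, and *Cfap126* and *Gm10521* lower. These are 7.53% of the members, and 7.22% of all genes were called with ACs only. Over all 3 treatments 73 members were significant at least once (78.5%, beside 60.6% of all genes) and 20 never.

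**Figure D1:**
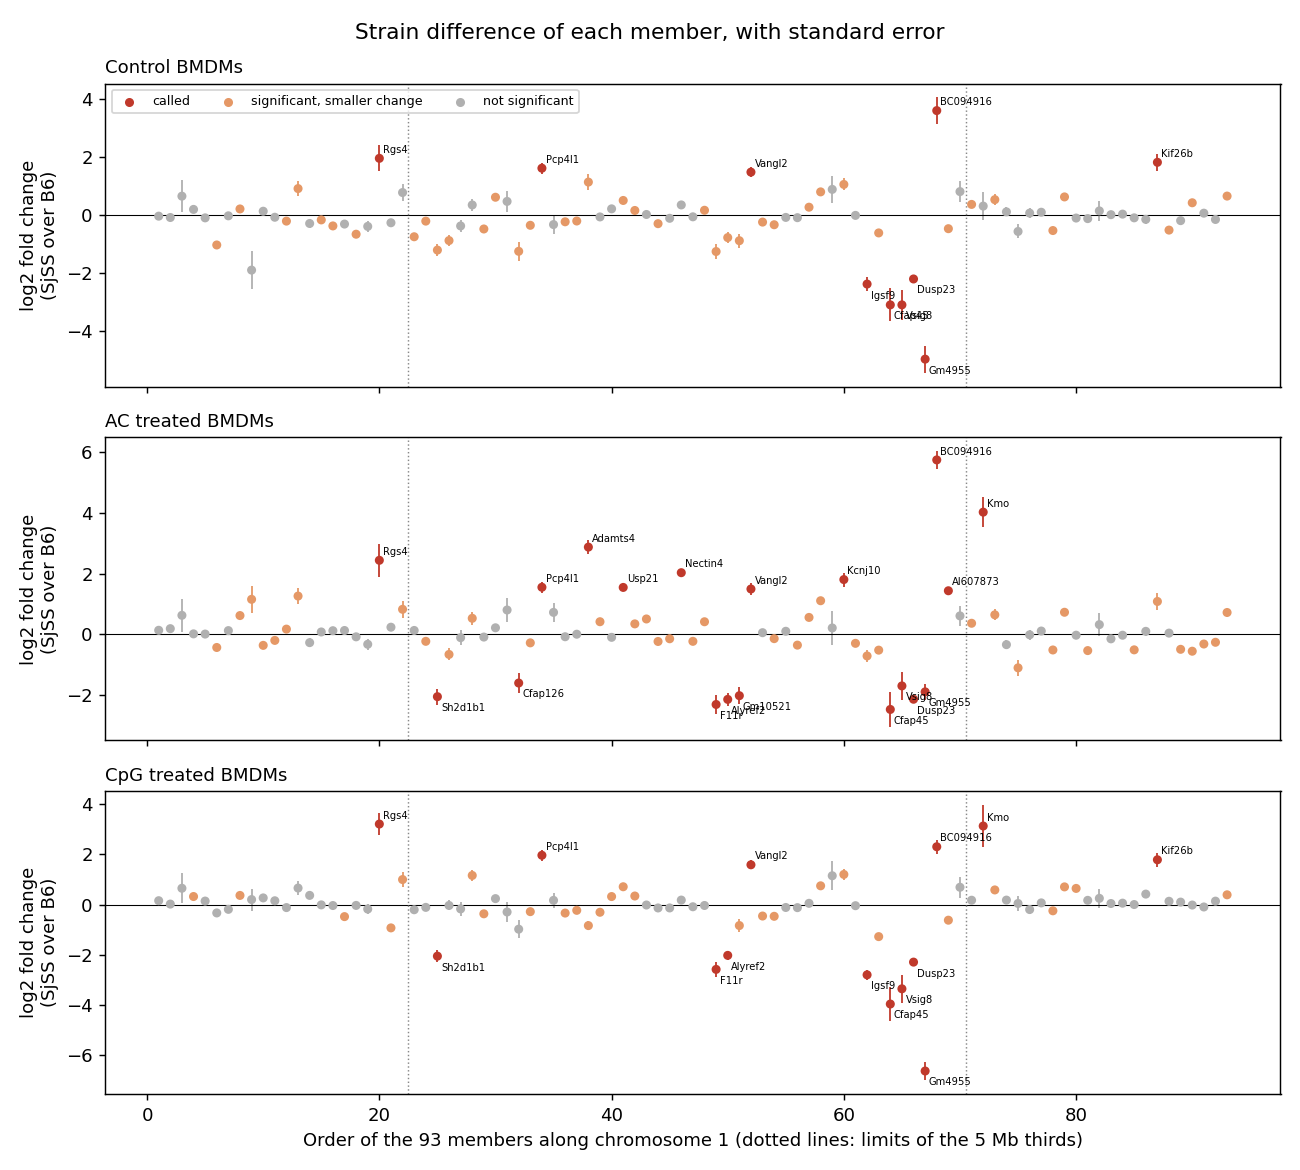
Log2 fold change of SjSS over B6 BMDMs (vertical axis) with its standard error for the 93 members in their order along chromosome 1, in control, AC and CpG treated BMDMs. Red points are called, orange points are significant with a smaller change and grey points are not significant; the called members lie mostly between the dotted lines, in the middle 5 Mb.

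The calls were unevenly placed along the interval. The 48 members that start between 170 and 175 Mb held 8 of the 10 calls in control, 17 of 19 with ACs and 11 of 14 with CpG. The 22 members from 165 to 170 Mb held 1 call in each treatment, *Rgs4*, which starts at 169741477 near the edge of the middle 5 Mb. The 23 members from 175 to 180 Mb held 1, 1 and 2 calls (*Kif26b* in control, *Kmo* with ACs, both with CpG). In order of position, the shares called in each 5 Mb were 4.55%, 16.7% and 4.35% in control, beside 2.01% of all genes tested. With ACs they were 4.55%, 35.4% and 4.35%, beside 8.93%, so that the outer parts, with 1 call each, lay below all genes by this rule. With CpG they were 4.55%, 22.9% and 8.7%, beside 2.61%. At the adjusted p alone the shares were 36.4%, 68.8% and 34.8% in control, beside 19.6% of all genes. They were 40.9%, 72.9% and 60.9% with ACs, beside 49.4%, and 27.3%, 58.3% and 30.4% with CpG, beside 19.7%. By that rule only the part from 165 to 170 Mb with ACs lay below all genes. A run of neighbours from *Igsf9* (172481788) to *AI607873* (173723430) held *Igsf9*, *Tagln2*, *Cfap45*, *Vsig8*, *Dusp23*, *Gm4955*, *BC094916* and *AI607873*, each significant in every treatment.

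For context, chromosome 1 was divided into windows of 15 Mb holding all protein-coding genes with 180 counts or more, the left-out families included. The window of the members held 116 such genes, of which 13.8% were called in control, 25% with ACs and 19% with CpG. In the windows on either side the shares were 3.95%, 15.8% and 6.58% of 76 genes (150 to 165 Mb) and 4%, 10.7% and 5.33% of 75 genes (180 to 195 Mb). A distant window, 75 to 90 Mb, gave 16%, 26.7% and 14.7% of 75 genes, so that the window of the members was not the only one with high shares. Over all chromosomes 1.61%, 7.57% and 2.42% of 12433 genes were called. These shares are given as a description, since neighbouring genes are not independent.

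**Figure D2:**
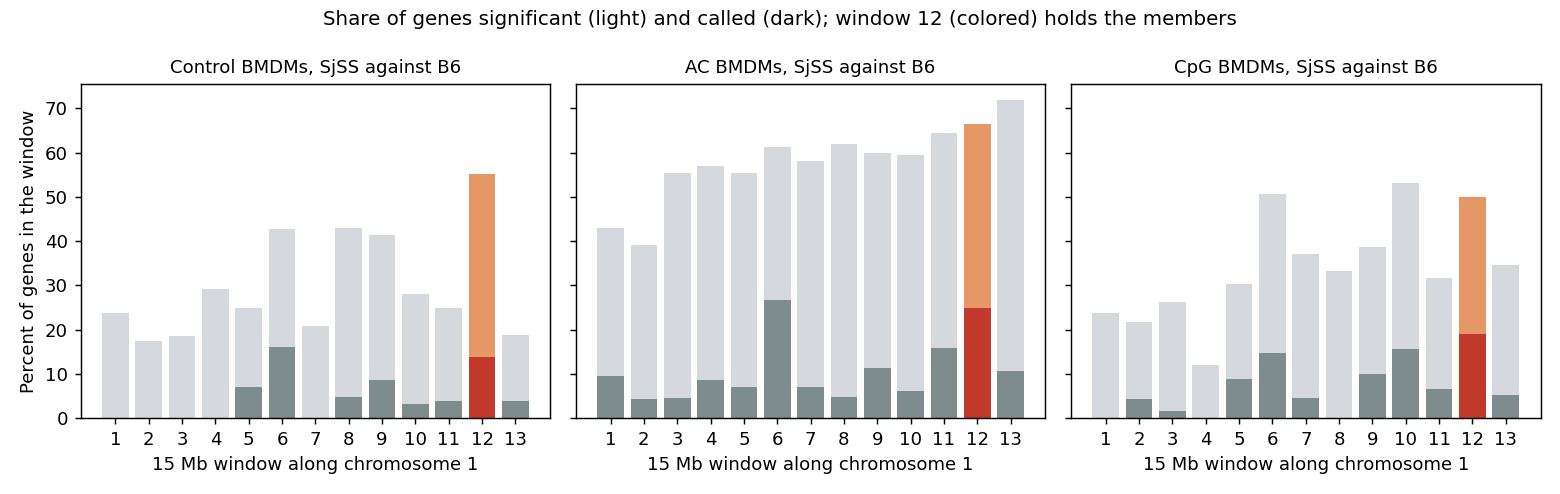
Percent of protein-coding genes that were significant (light bars) and called (dark bars) between the strains in 13 successive windows of 15 Mb along chromosome 1, in control, AC and CpG treated BMDMs. The colored window holds the members, with 13.8%, 25% and 19% of its genes called, and the sixth window, from 75 Mb, has similar shares.

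A strain difference that was present in every treatment was found for 26 members, 13 higher and 13 lower in SjSS (28%), beside 3.18% of all genes tested, 1.96% higher and 1.22% lower. In 24 of the 26 the samples of the strains did not overlap in any treatment. Of all 93 members 17 lay above and 13 below B6 without overlap in every treatment, beside 3.27% and 2.23% of all genes. *Dusp23*, a dual specificity phosphatase, gave the steadiest values. Control samples had 10.3, 10.2 and 9.77 CPM in B6 and 2.41, 1.72 and 2.30 in SjSS. AC treated samples had 9.0, 8.67 and 9.52 CPM in B6 and 2.09, 2.12 and 1.91 in SjSS. CpG treated samples had 9.53, 10.5 and 9.95 CPM in B6 and 2.07, 1.83 and 2.17 in SjSS. Neither treatment changed it past the test in either strain, and every SjSS sample lay below every B6 sample. The log2 fold change was -2.21 ± 0.11 (SE) in control (4.64-fold lower, edgeR adjusted p = 1.25e-10), -2.15 ± 0.11 with ACs and -2.30 ± 0.12 with CpG. Its interaction of strain and treatment was 0.07 ± 0.16 for AC and -0.09 ± 0.16 for CpG (edgeR adjusted p = 0.81 and 0.82).

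*Tagln2*, an actin-binding protein that lies close to *Dusp23*, was lower in SjSS at a higher level of expression. In control BMDMs it had 182, 173 and 190 CPM in B6 and 114, 121 and 118 in SjSS, and with CpG 294, 307 and 293 in B6 and 122, 125 and 121 in SjSS. CpG thus raised it in B6 (log2 fold change 0.71 ± 0.05), while the SjSS value was 0.06 ± 0.05, and the difference between these responses was -0.65 ± 0.07 (edgeR adjusted p = 2.1e-05). ACs raised it in both strains, by 0.78 ± 0.05 in B6 and 0.88 ± 0.05 in SjSS.

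*Igsf9*, *Cfap45* and *Vsig8* were also lower in this stretch, as was *Gm4955*, which is described with the PYHIN members. *Igsf9*, a member of the immunoglobulin superfamily, had 1.49, 1.75 and 2.49 CPM in control B6 and 0.350, 0.325 and 0.399 in control SjSS (log2 fold change -2.39 ± 0.25, edgeR adjusted p = 2.42e-06). CpG raised it in both strains, to 12.0, 12.4 and 13.8 CPM in B6 and 1.48, 2.08 and 1.90 in SjSS, and the gap remained at -2.81 ± 0.19. With ACs the gap was smaller at -0.72 ± 0.20 (edgeR adjusted p = 0.0059), since ACs raised the gene by 2.17 ± 0.26 in SjSS and 0.50 ± 0.19 in B6. *Cfap45*, a protein of cilia, and *Vsig8* were at low levels, and their strain differences were -3.11 ± 0.57 and -3.11 ± 0.51 in control, -2.48 ± 0.57 and -1.71 ± 0.48 with ACs, and -3.97 ± 0.69 and -3.37 ± 0.55 with CpG. With CpG *Cfap45* had 6 counts in the 3 SjSS samples and 105 in B6, a ratio of 16.9 for B6 over SjSS (exact 95% interval 7.52 to 47.1, counting error only). Both genes overlap a non-coding gene on the other strand, and the sources do not state whether counting used the strand.

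Among the members higher in SjSS in every treatment were *Igsf8*, *Creg1*, *Usp21*, *Ufc1*, *Cdc42bpa*, *Opn3*, *Kcnj10*, *Pcp4l1*, *Vangl2*, *Kif26b*, *Rgs4* and *BC094916*. *Igsf8*, a tetraspanin partner, had 110, 109 and 116 CPM in control B6 and 178, 202 and 199 in control SjSS, with differences of 0.79 ± 0.07, 1.10 ± 0.07 and 0.75 ± 0.07 in control, AC and CpG treated BMDMs. Its strains did not overlap in any treatment. *Creg1*, a lysosomal glycoprotein, was among the 3 members of highest CPM, a scale that is not divided by gene length, and had 1053 to 1125 CPM in control B6 and 1229 to 1246 in control SjSS. Its difference was 0.20 ± 0.05 in control, where it was lost on leaving out control B6 replicate 1 (edgeR adjusted p = 0.054), 0.61 ± 0.05 with ACs and 0.36 ± 0.05 with CpG.

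**Figure D3:**
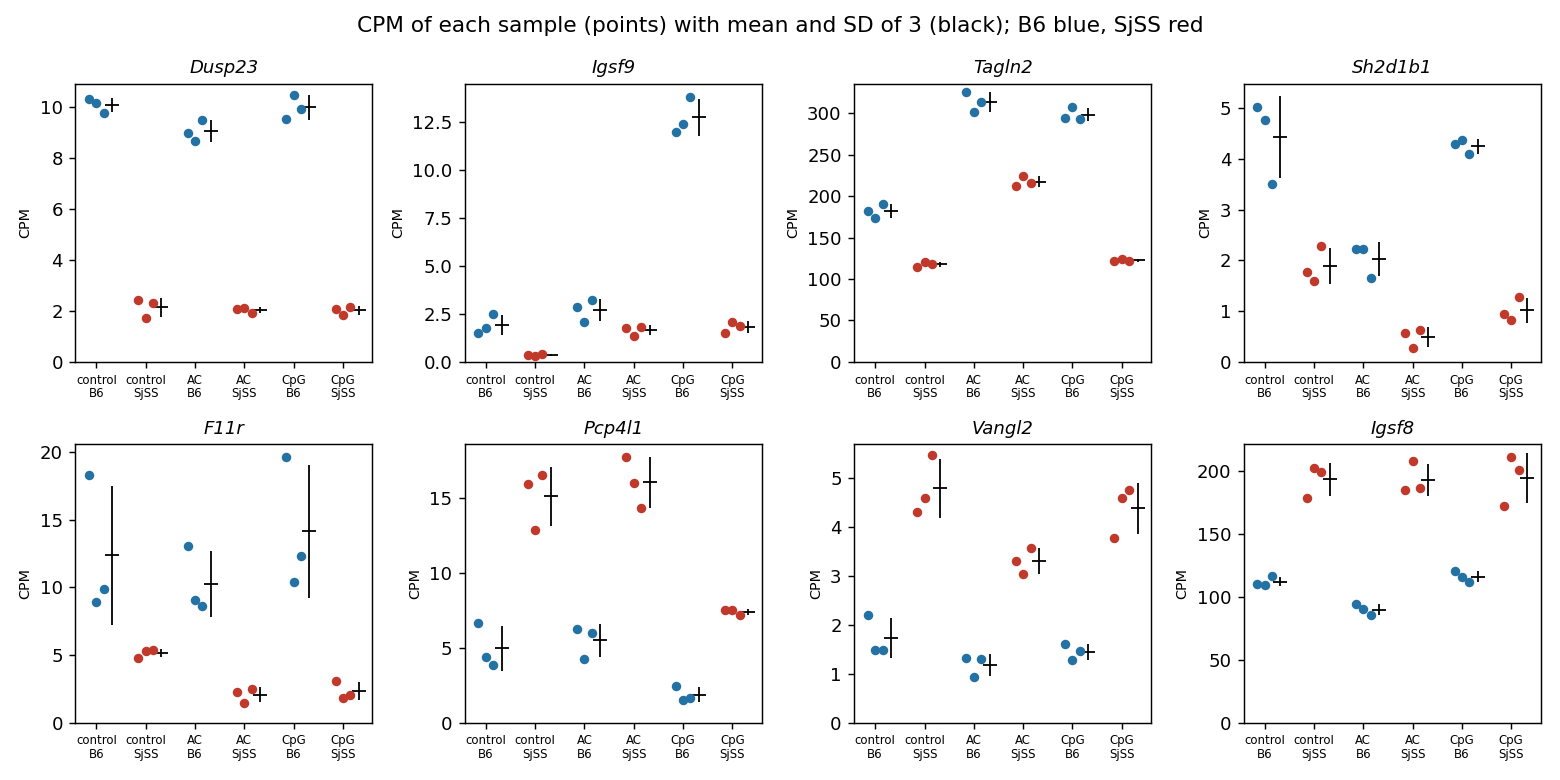
CPM (vertical axes, starting at 0) of 8 members that differed between B6 (blue) and SjSS (red) in every treatment, for each of the 3 samples in the 6 groups, with mean and SD in black. *Dusp23* stays near 10 CPM in B6 and near 2 in SjSS in each treatment, while *Igsf9* and *Tagln2* also change with treatment.

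*Rgs4*, a regulator of G protein signaling, and *Vangl2*, a planar cell polarity protein, were called higher in all 3 treatments. *Vangl2* had 2.19, 1.48 and 1.49 CPM in control B6 and 4.31, 4.58 and 5.46 in control SjSS (log2 fold change 1.47 ± 0.18, edgeR adjusted p = 1.17e-05). *Rgs4* had 0.160, 0.0834 and 0.0533 CPM in control B6 and 0.368, 0.444 and 0.381 in control SjSS, and with CpG 0.202, 0.0533 and 0.152 in B6 and 1.10, 1.28 and 1.58 in SjSS. The strain difference of *Rgs4* was 1.94 ± 0.45 in control and 3.21 ± 0.42 with CpG. With ACs it rested on 7 counts in B6 and 35 in SjSS, a ratio of 5.66 (exact 95% interval 2.48 to 15.1). *Pcp4l1*, a calmodulin-binding protein, was higher in SjSS by 1.60 ± 0.19, 1.55 ± 0.19 and 1.97 ± 0.21 in control, AC and CpG treated BMDMs.

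The summed level of markers of fibroblasts, a cell type that bone marrow cultures can hold, was higher in SjSS. The sum of *Col1a1*, *Col1a2*, *Col3a1*, *Pdgfra* and *Dcn*, all 5 detected in each group, was 43.6 to 133 CPM in control B6 and 164 to 228 in control SjSS, 77.9 to 115 and 186 to 232 with ACs, and 38.6 to 96.7 and 148 to 195 with CpG. *Col1a1* and *Col1a2* made up most of the sum and did not overlap between the strains in any treatment, while *Col3a1* and *Pdgfra* overlapped in each. The lowest sums were in control B6 replicate 2 and CpG B6 replicate 2. *Ddr2*, a collagen receptor, was also lowest there, with 1.42 CPM (3.19 and 2.43 in the other control B6 samples) and 0.719 CPM (2.82 and 2.02 in the other CpG B6 samples). Its strain difference was 1.00 ± 0.30 with CpG and 0.82 ± 0.29 with ACs, and 0.76 ± 0.29 in control, where it did not pass (edgeR adjusted p = 0.074). In bulk samples fewer cells of a type and less RNA per cell cannot be told apart. The part of the fibroblast markers in the differences of *Ddr2*, *Rgs4*, *Vangl2*, *Kif26b* and *Pcp4l1* was not tested.

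**Figure D4:**
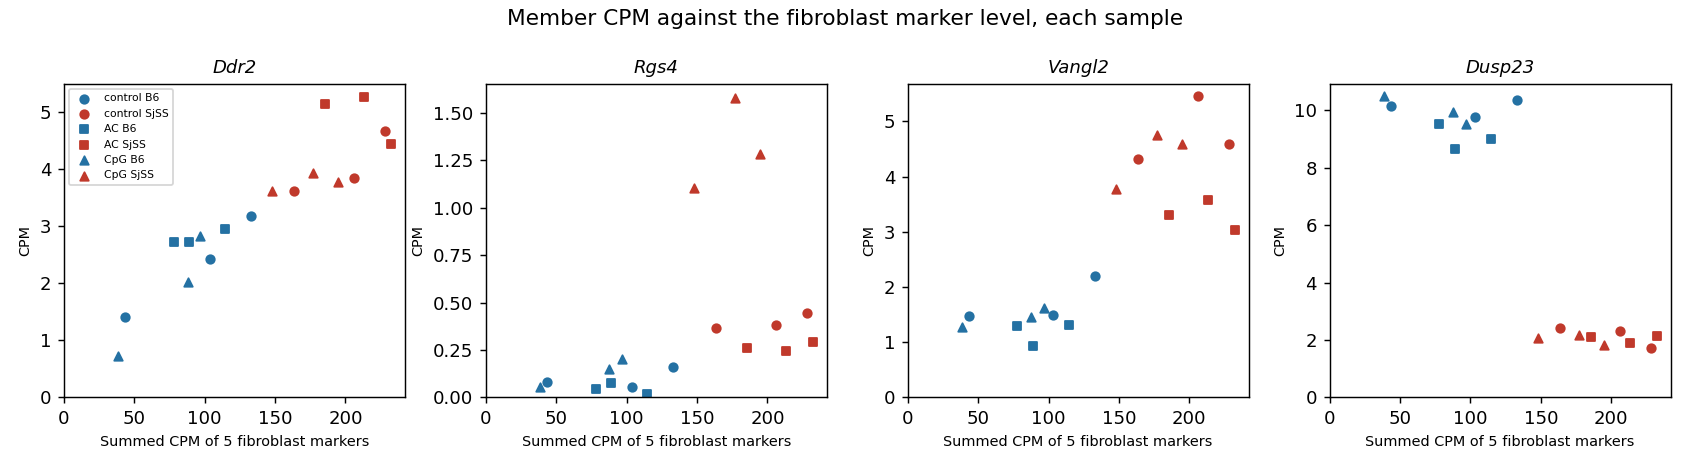
CPM of 4 members (vertical axes) against the summed CPM of 5 fibroblast markers (horizontal axes) in each of the 18 samples, B6 in blue and SjSS in red, with circles for control, squares for AC and triangles for CpG. SjSS samples lie to the right of all B6 samples, *Ddr2* rises with the marker sum within B6, and *Dusp23* has the same level in B6 samples of low and high sums.

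*F11r* and *Sh2d1b1* were lower in SjSS in every treatment. *F11r*, which encodes the junctional adhesion molecule JAM-A, had 18.3, 8.93 and 9.89 CPM in control B6 and 4.79, 5.29 and 5.38 in control SjSS, and with CpG 19.7, 10.4 and 12.4 in B6 and 3.10, 1.85 and 2.08 in SjSS. Its strain difference was -1.27 ± 0.27 in control, -2.32 ± 0.30 with ACs and -2.59 ± 0.30 with CpG. *Sh2d1b1*, the adaptor EAT-2 that binds SLAM receptors, gave -1.22 ± 0.21, -2.06 ± 0.26 and -2.06 ± 0.23. In both genes every SjSS sample was below every B6 sample of its treatment. The change of the difference with ACs passed the test for *F11r* (interaction -1.05 ± 0.41, edgeR adjusted p = 0.0498) and not for *Sh2d1b1* (-0.84 ± 0.34, edgeR adjusted p = 0.060). With CpG it passed for neither, at -1.32 ± 0.40 for *F11r* and -0.84 ± 0.32 for *Sh2d1b1* (edgeR adjusted p = 0.060 and 0.13). With the replicate number as a block within each strain these 3 values passed (edgeR adjusted p = 0.014 for *Sh2d1b1* with AC, and 0.0010 for *F11r* and 0.029 for *Sh2d1b1* with CpG).

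The interaction of strain and AC asks which members answered ACs differently in the 2 strains. It was called for 9 members, 8 with a higher response in SjSS and 1 with a lower (9.68%), beside 7.53% of all genes, 4.76% higher and 2.77% lower. At the adjusted p alone 29 were higher and 9 lower (40.9%, with 37.9% of all genes). By direction, these were 31.2% of members higher, with 19.6% of all genes, and 9.68% lower, with 18.3%. The higher called members were *Kmo*, *Gm4955*, *Cd247*, *BC094916*, *AI607873*, *Adamts4*, *Nectin4* and *Igsf9*, and the lower was *Alyref2*. Each interaction uses the control samples that the strain comparison of control BMDMs also uses.

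*Nectin4*, a cell adhesion protein of the nectin family, had 22, 20.6 and 19.7 CPM in control B6 and 24.5, 24.5 and 29.5 in control SjSS. With ACs it had 17.2, 18.1 and 16.9 CPM in B6 and 69.2, 68.7 and 74.8 in SjSS. The AC treated SjSS samples stood far above the others. In control the strains did not overlap either. That smaller difference did not pass in the main analysis and passed in 4 of 24 alternatives. The AC response was 1.44 ± 0.13 in SjSS (2.70-fold, edgeR adjusted p = 1.42e-08) and -0.26 ± 0.13 in B6 (edgeR adjusted p = 0.14), and the interaction was 1.69 ± 0.18 (edgeR adjusted p = 7.03e-07). CpG did not raise it in either strain, with -0.31 ± 0.13 in B6 and -0.47 ± 0.13 in SjSS, of which the second passed as a decrease. With the replicate block within each strain the B6 value also passed (edgeR adjusted p = 0.014).

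The PYHIN members *AI607873* and *Gm4955* and their neighbour *BC094916* started from different strain differences without treatment, and ACs raised all 3 in both strains. *AI607873* had 207, 238 and 210 CPM in control B6 and 161, 165 and 143 in control SjSS. With ACs it had 285, 292 and 310 CPM in B6 and 844, 725 and 821 in SjSS. It was thus lower in SjSS without treatment (-0.48 ± 0.12) and with CpG (-0.63 ± 0.12), and higher with ACs (1.43 ± 0.12, edgeR adjusted p = 8.31e-09). *BC094916* had 0.144, 0.188 and 0.195 CPM in control B6 and 2.08, 2.45 and 1.90 in control SjSS, and with ACs 0.933, 1.31 and 1.38 in B6 and 66.4, 62.9 and 65.4 in SjSS. For this gene the AC response was 2.77 ± 0.50 in B6 and 4.93 ± 0.27 in SjSS. The interaction, 2.16 ± 0.71 (edgeR adjusted p = 0.022), was lost on leaving out control B6 replicate 2 or 3, with an adjusted p of up to 0.080.

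*Gm4955* ran the other way in level. It had 4.50, 5.32 and 5.74 CPM in control B6 and 0.111, 0.355 and 0.0906 in control SjSS, and with ACs 18.3, 27.0 and 25.6 in B6 and 6.74, 5.68 and 6.55 in SjSS. With CpG it had 27.1, 47.2 and 36.2 CPM in B6 and 0.832, 0.0494 and 0.183 in SjSS. Every SjSS sample was below every B6 sample of its treatment, also with ACs, where the strain difference was -1.90 ± 0.26, beside -4.98 ± 0.47 in control and -6.65 ± 0.38 with CpG. The AC response was 5.26 ± 0.46 in SjSS and 2.19 ± 0.26 in B6, an interaction of 3.07 ± 0.60 (edgeR adjusted p = 0.00049). The SjSS response started from 23 counts over the 3 control SjSS samples. PYHIN genes of this cluster have near-identical copies, and estimated counts can split reads among them, so that the values of *Gm4955*, *BC094916* and *AI607873* are uncertain as values of single genes.

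**Figure D5:**
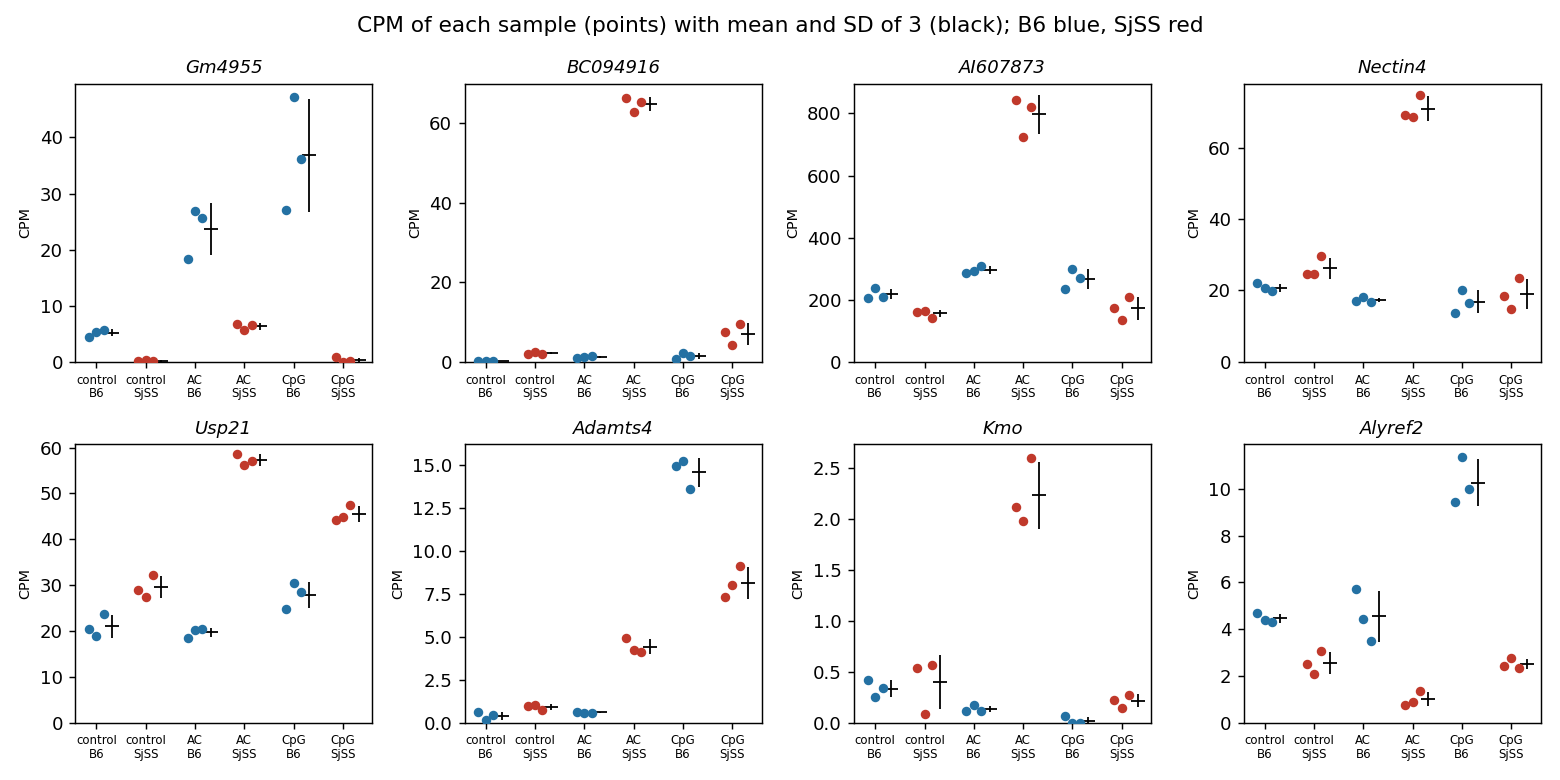
CPM (vertical axes, starting at 0) of 8 members whose strain difference was called with ACs, for each of the 3 samples in the 6 groups, B6 in blue and SjSS in red, with mean and SD in black. AC treated SjSS samples are the highest of the 6 groups for *BC094916*, *AI607873*, *Nectin4*, *Usp21* and *Kmo*, while *Adamts4* is highest in CpG treated B6, and *Alyref2* and *Gm4955* are lower in SjSS in every treatment.

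*Usp21*, a deubiquitinating enzyme, had 18.5, 20.1 and 20.4 CPM in AC treated B6 and 58.7, 56.2 and 57 in AC treated SjSS, beside 20.4, 18.9 and 23.8 and 28.9, 27.4 and 32.1 in control. Its strain difference was 1.54 ± 0.09 with ACs (edgeR adjusted p = 2.62e-11), 0.49 ± 0.08 in control and 0.71 ± 0.08 with CpG. ACs raised it in SjSS by 0.96 ± 0.08, and the B6 value was -0.10 ± 0.09.

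*Kmo*, the kynurenine 3-monooxygenase of tryptophan breakdown, had 0.119, 0.170 and 0.111 CPM in AC treated B6 and 2.12, 1.98 and 2.60 in AC treated SjSS. Control samples had 0.416, 0.250 and 0.337 CPM in B6 and 0.534, 0.0887 and 0.562 in SjSS and overlapped. The strain difference with ACs was 4.03 ± 0.50 (edgeR adjusted p = 1.97e-06) and the interaction 3.73 ± 0.69 (edgeR adjusted p = 0.0003). With CpG *Kmo* had 3 counts in the B6 samples and 28 in SjSS, a ratio of 9.66 (exact 95% interval 2.98 to 49.6). *Kmo* overlaps *Fh1* on the other strand, whose own strain difference with ACs was 0.36 ± 0.07.

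*Adamts4*, a protease that cleaves aggrecan, changed the sign of its strain difference with the treatment. With ACs it had 0.635, 0.587 and 0.579 CPM in B6 and 4.94, 4.23 and 4.11 in SjSS (log2 fold change 2.87 ± 0.23, edgeR adjusted p = 4.61e-09). With CpG it had 14.9, 15.2 and 13.6 CPM in B6 and 7.29, 8.01 and 9.09 in SjSS (-0.84 ± 0.17, edgeR adjusted p = 0.0018). In control the difference was 1.12 ± 0.28 (edgeR adjusted p = 0.0083), and it was lost in a fit of the compared groups alone (0.097). Strains did not overlap in any treatment. *Adamts4* overlaps another gene on the other strand. CpG raised it in both strains, by 5.15 ± 0.23 in B6 and 3.18 ± 0.21 in SjSS. It was the 1 member called in the interaction of strain and CpG, at -1.97 ± 0.33. This is 1.08% of the members, beside 0.614% of all genes, 0.285% higher and 0.329% lower. At the adjusted p alone 5 members were higher and 5 lower in that interaction (10.8%), beside 5.85% of all genes, 3.23% higher and 2.62% lower. With the replicate block within each strain 2 members were called lower in it, *Adamts4* and *F11r* (-1.35 ± 0.22).

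*Alyref2*, a copy of an mRNA export factor gene, had 5.70, 4.43 and 3.50 CPM in AC treated B6 and 0.775, 0.904 and 1.37 in AC treated SjSS, beside 4.68, 4.40 and 4.30 and 2.52, 2.10 and 3.05 in control. ACs lowered it in SjSS (-1.34 ± 0.21), while the B6 value was 0.03 ± 0.18. CpG raised it in B6 (1.20 ± 0.17), while the SjSS value was -0.04 ± 0.19. Both interactions passed, at -1.36 ± 0.28 with AC and -1.24 ± 0.26 with CpG (edgeR adjusted p = 0.00067 and 0.0068). The AC value passed but was within 1.3 without control SjSS replicate 3, AC B6 replicate 1, or AC SjSS replicate 1 or 2, which left 0 lower members, and 2 were lower without control B6 replicate 1 or AC SjSS replicate 3. *Alyref2* can share reads with *Alyref* and overlaps an antisense gene, which leaves its values uncertain. *Gm10521* was also lower in SjSS, by -0.90 ± 0.25 in control, -2.03 ± 0.27 with ACs and -0.84 ± 0.27 with CpG. The CpG difference was lost on leaving out any of 3 CpG samples (edgeR adjusted p of up to 0.20, without CpG B6 replicate 3), and the control difference on leaving out control B6 replicate 2 (0.072) or control SjSS replicate 3.

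*Cd247* encodes the zeta chain of the T cell receptor complex, and it rested on few counts. Control samples had 0.208, 0.104 and 0.178 CPM in B6 and 0.0368, 0.0592 and 0.0363 in SjSS (28 and 6 counts, a ratio of 4.01 for B6 over SjSS, exact 95% interval 1.63 to 11.8, counting error only). This difference did not pass the test (edgeR adjusted p = 0.0501). With ACs it had 0.218, 0.435 and 0.156 CPM in B6 and 0.336, 0.736 and 0.740 in SjSS. The strain difference with ACs, 1.15 ± 0.45 (edgeR adjusted p = 0.041), passed in the main analysis and was lost in 9 of 24 alternatives, among them leaving out AC B6 replicate 3 (edgeR adjusted p = 0.16). The interaction was 3.06 ± 0.80 (edgeR adjusted p = 0.0053). Since the ACs were thymocytes, T lineage markers were summed beside it. The 15 markers came to 5.12 to 6.11 CPM in AC treated B6 and 14.3 to 18.8 in AC treated SjSS, and without *Cd4* to 1.77 to 2.56 and 1.73 to 2.38, with 0.560 to 0.855 and 0.739 to 1.27 in control. *Rag1*, a thymocyte gene, had 0 counts in both control groups, 24 in AC treated B6 and 3 in AC treated SjSS, and *Themis* had 10 and 0. *Dntt* had 18 and 1, *Cd8a* 26 and 10, *Cd8b1* 14 and 9, and *Bcl11b* 20 and 13. *Lck*, a T cell kinase, ran the other way, with 39 counts in AC treated B6 and 86 in AC treated SjSS. So did *Cd4* with 529 and 1830, *Cd3g* with 8 and 14 and *Trac* with 4 and 7. All other markers of the 15 were higher in AC treated B6 by counts, though *Cd5* was close at 105 and 104. *Trac* was not limited to ACs: it reached 8 (control SjSS), 17 (CpG B6) and 12 (CpG SjSS), with 0 for control B6. The part of thymocyte RNA in the *Cd247* values was not tested. *Cd247* also overlaps *Pou2f1* on the other strand.

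By role, members of the secretory path, mitochondria and RNA processing differed by small amounts. The counts of each list stand beside 19.6% of all genes significant in control, 49.4% with ACs and 19.7% with CpG. Of 13 members of the ER, Golgi, lysosome and secretory path, none was called in a strain comparison, 3 were significantly higher and 5 lower in control, 3 and 4 with ACs, and 2 and 4 with CpG. *Atf6*, a sensor of unfolded proteins, was lower in control (-0.49 ± 0.06) and with CpG (-0.37 ± 0.06), and *Copa*, a subunit of the COPI coat, in all 3 treatments (-0.35 ± 0.05, -0.15 ± 0.05 and -0.47 ± 0.05). The AC interaction was significant and higher for 9 of the 13 and lower for 1, with a median of 0.25 over the list and -0.01 over all genes. At this rule 31.2% of all 93 members and 19.6% of all genes were higher, and 9.68% and 18.3% were lower. Of 7 mitochondrial members 1 was higher and 3 lower in control, 1 and 2 with ACs, and 3 lower with CpG. *Sdhc*, a subunit of succinate dehydrogenase, was lower in each treatment, with 87.4, 86.8 and 81.5 CPM in control B6 and 65.5, 63.9 and 69.0 in control SjSS (-0.37 ± 0.05, edgeR adjusted p = 7.19e-05).

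Of 13 kinases, phosphatases and signalling members, 7 were significantly higher and 3 lower in control, 7 and 3 with ACs, and 6 and 1 with CpG. This list had the largest median strain difference above 0 in control (0.61) and included *Rgs4*, *Vangl2* and *Dusp23*. Of 7 immune receptors and adaptors, 3 were lower in control, 4 were lower and 1 higher with ACs, and 3 were lower with CpG. The median of this immune list in control was -1.22, larger in size than that of the signalling list. The 3 called with CpG were *Sh2d1b1*, *F11r* and *Vsig8*. Of 8 members for transcription and RNA, 3 were lower in control, 1 higher and 3 lower with ACs, and 1 higher with CpG. *Hnrnpu*, an abundant RNA-binding protein, had 558, 568 and 571 CPM in AC treated B6 and 397, 371 and 416 in AC treated SjSS (-0.52 ± 0.05), while the control and CpG values were -0.11 ± 0.05 and 0.00 ± 0.05 and did not pass.

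Of 8 members for ubiquitin and protein turnover, 2 were higher in control, 3 higher and 2 lower with ACs, and 3 higher with CpG. Of 10 members in a list of metabolic enzymes, which also holds the opsin *Opn3*, the Rab escort protein *Chml* and the protease *Adamts4*, 2 (*Opn3* and *Adamts4*) were higher and 2 lower in control, 3 and 2 with ACs, and 3 and 2 with CpG. Of 5 members for cell division and centrosome, 1 was lower in control, 3 with ACs and 1 with CpG, and *Exo1*, a DNA repair exonuclease, was lower with ACs (-1.11 ± 0.26, edgeR adjusted p = 0.0016). Of 5 cytoskeleton, adhesion and channel members, 1 was higher and 2 lower in control, and 2 higher and 2 lower with each treatment. *Pea15a*, a regulator of ERK signaling and one of the 3 members of highest CPM, was higher in SjSS in control (0.26 ± 0.05) and with ACs (0.55 ± 0.05). With CpG it had 752, 688 and 644 CPM in B6 and 706, 717 and 730 in SjSS, which overlapped (0.05 ± 0.05).

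At the ends of the interval, *Sft2d2* and *Tiprl*, the members of lowest start, were significant in no treatment, with values of -0.05 ± 0.06 and -0.10 ± 0.10 in control. *Ahctf1*, a nucleoporin gene near the other end, was lower with ACs (-0.27 ± 0.06, edgeR adjusted p = 0.00083), while its values in control (-0.16 ± 0.06) and with CpG (0.13 ± 0.06) did not pass. *Cdc42bpa*, a kinase that acts with CDC42, was higher in each treatment (0.64 ± 0.13, 0.71 ± 0.13 and 0.39 ± 0.13), and the CpG difference was lost on leaving out any of 4 CpG samples, with an adjusted p of up to 0.16 by edgeR without CpG B6 replicate 2. *Nr1i3*, the nuclear receptor CAR, had the largest mean strain difference of the transcription and RNA list and was significant in no treatment (0.72 ± 0.30 with ACs, edgeR adjusted p = 0.057).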

How the data were processed

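RNA-seq of 18 BMDM samples was analysed, 3 in each of 6 groups given by the labels. The authors aligned reads to mm10, the B6 reference, with STAR and deposited estimated counts for each gene from Partek's E/M quantification, without normalization. Of these 41.1% were not whole. Reads of both strains were aligned to B6 sequence, and the effect on NOD sequence was not tested. Counts were rounded, filtered with filterByExpr (15789 genes), scaled by TMM and fitted with 1 mean per group by edgeR 4.0.16 (quasi-likelihood test, R 4.3.3, limma 3.58.1), with Benjamini-Hochberg adjustment over all genes in each comparison. The SE was the log2 fold change divided by the square root of F. Totals were 30688336 to 57139662 counts, and CPM used these totals scaled by TMM (33811198 to 62451310). Intervals cover counting error only, and positions are those of the deposited table. Figures used matplotlib 3.10.9.

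The named members were those called in a strain comparison (up to 15 by size), the 10 of largest mean difference among those significant with 1 sign and no overlap in all treatments, those called in an interaction (up to 6 each), the 2 at each end, the 3 of highest CPM and the leading member of each list. Others named (*Tagln2*, *Vangl2*, *Kif26b*, *Kcnj10*, *Ddr2*, *Copa*, *Atf6*, *Cfap126*, *Fh1*) were chosen after their values were seen, and some items are not reported here. Members, lists and tests were chosen with earlier results of these data known. Alternatives were DESeq2 1.42.0, its size factors in edgeR, other filters and fold thresholds, a replicate block, fits of the compared groups alone and each sample left out. The pipeline was tested on simulated data. Replicates differed by more than counting noise, so that no library was counted as a duplicate. Markers of NK cells (0.00 to 0.43 CPM), erythroid (0.00 to 0.22), dendritic (0.80 to 3.54), neutrophil (2.24 to 12.7) and B lineage cells (9.41 to 26.8) were low in summed level.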

Additional observations from a re-analysis of the deposited data

Results flagged for a closer look

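The response to a treatment differed between the strains by over 1.3 on the log2 scale with an adjusted p under 0.05 (interaction term of the edgeR fit) for 9 of the named members. Others passed the adjusted p with a smaller difference. With ACs the log2 response was higher in SjSS than in B6 by 3.73 for *Kmo*, 3.07 for *Gm4955*, 3.06 for *Cd247*, 2.16 for *BC094916*, 1.91 for *AI607873*, 1.75 for *Adamts4*, 1.69 for *Nectin4* and 1.67 for *Igsf9*, and it was lower by a difference of -1.36 for *Alyref2*. With CpG the response of *Adamts4* differed by -1.97. *Cd247* and *Kmo* rest on few counts. *Gm4955* had 23 counts in control SjSS, and *BC094916* had 29 in control B6. The *BC094916* value passed in the main analysis but not without control B6 replicate 2 or 3. With 3 samples a group, single samples were not tested as outliers.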

How the results depend on the processing

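DESeq2, its size factors, no filter, the filter of 10 counts in 3 samples and the compared groups alone kept each count of called members within 1.5 times its value, except that DESeq2 called 2 members lower in the CpG interaction. With no fold threshold the counts higher and lower were 20 and 29 in control, 27 and 31 with ACs, 19 and 22 with CpG, 29 and 9 in the AC interaction and 5 and 5 in the CpG interaction. With a log2 fold change over 1 there were 9 lower in control, 3 lower in the AC interaction and 2 lower in the CpG interaction. Leaving out each sample gave 5 to 7 higher and 5 to 8 lower in control (8 without control B6 or control SjSS replicate 3), 10 to 12 and 9 to 9 with ACs, 6 to 8 and 8 to 9 with CpG, 7 to 9 and 0 to 2 in the AC interaction, 0 to 1 and 1 to 2 in the CpG interaction, and 11 to 13 higher and 11 to 14 lower in all treatments. The AC interaction held 0 lower members without control SjSS replicate 3, AC B6 replicate 1, or AC SjSS replicate 1 or 2, and 2 without control B6 replicate 1 or AC SjSS replicate 3. In the CpG interaction 1 was higher without CpG B6 replicate 1, and 2 were lower without control B6 replicate 1, control SjSS replicate 2, or replicate 1 or 2 of CpG B6 or CpG SjSS. The cause was not tested. With the replicate number as a block, and as a block within each strain, 2 members were called lower in the CpG interaction, and no other count moved by over 1.5 times; within a strain all 18 same-numbered pairs of samples correlated above 0 (0.020 to 0.26, 9 above 0.1), 0 of 36 pairs of different number were above 0.1 (highest 0.0745), and in 32 of 36 cases a sample correlated best with its own number. Every pair was above 0.1 for control B6 with CpG B6 alone, and between strains in a treatment the pairs were at -0.072 to 0.016. The block of CpG responses was chosen after seeing the data. Of the values of named members under these settings, 2340 kept their direction and side of the threshold, 23 lost and 23 gained significance and none reversed. Depth limits members of few counts: *Rgs4*, *Cfap45*, *Vsig8*, *Kmo* and *Cd247*, and also *Gm4955* in control SjSS and *BC094916* in control B6.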
